A study of Mus musculus with 12 samples.

Results

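A set of 10 genes that mark the thalamus and habenula, which lie dorsal to the hypothalamus, was followed through 12 hypothalamus libraries: 7 thalamic genes (Tcf7l2, Prkcd, Lef1, Ntng1, Plekhg1, Rora and Slitrk6) and 3 habenular genes (Pou4f1, Gpr151 and Chrnb4). They were taken by symbol from the 32494 genes listed in the normalised expression table, and all 10 were found. The libraries come from male mice with a floxed Smc3 gene, which encodes a subunit of the cohesin ring, and all mice received tamoxifen. The 7 mice labelled WT lacked the Camk2a-cre/ERT2 transgene, and the 5 labelled cKO carried it; the titles of both also carry the word control, which the labels do not explain. This transgene makes a tamoxifen-activated Cre recombinase under the promoter of a kinase of forebrain excitatory neurons, so the WT mice carry the floxed gene and the drug but no Cre. The tissue was collected 5 weeks after the drug, from mice whose growth note gives an age of 8 weeks. Each library is 1 mouse by its number, and polyadenylated RNA was sequenced.

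The thalamus relays sensory and motor signals to the cortex and lies directly above the hypothalamus. Its excitatory neurons keep the transcription factor Tcf7l2 and its relative Lef1, which act at the end of the Wnt/beta-catenin pathway, into adulthood. The habenula is a small paired nucleus at the dorsal edge of the thalamus, whose medial and lateral divisions project to the midbrain, and Pou4f1 is a transcription factor of its neurons. In a dissected hypothalamus the levels of these genes can reflect how much of such neighbouring tissue, or of other cells that share the genes, each library holds. Fewer cells of a type and less RNA per cell cannot be told apart in bulk tissue.

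Levels are in CPM, the deposited read counts scaled to library size, and differences were taken on log2(CPM + 1), where low genes appear to change less than they do. WT 1 held 68744112 reads and the other libraries 17126005 to 24010001. The targeted gene, Smc3, separated the labels in the direction opposite to a knockout, with no overlap: its level was 81.6 ± 3.14 CPM (SD, n = 7) in WT and 131 ± 10.3 CPM (SD, n = 5) in cKO, a log2 difference of 0.67, so cKO is used here only as a label. A set of 5 libraries stood apart across both groups. Slc6a3, the dopamine transporter of midbrain dopamine neurons, lay between 52.6 and 132 CPM in WT 1, WT 4, WT 5, cKO 12 and cKO 13, and between 0.826 and 1.78 CPM in the other 7. The hypothalamic label held unevenly: the peptide gene Oxt was at 0.280 to 2.33 CPM in WT 4, WT 5, cKO 12 and cKO 13 but at 69.5 CPM or more in the other 8, and Hcrt, the orexin gene of the lateral hypothalamus, was at 0.372 CPM in WT 11 against 10.4 CPM or more elsewhere.

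The promoter windows of Lef1 and Prkcd are shown because they hold letters that the Wnt effectors bind, and Tcf7l2 and Lef1 are themselves members. The motif searched was CTTTGA, the core letters bound by TCF/LEF factors, on both strands, in windows from 250 bases before to 50 bases after a gene's start in RefSeq's GRCm38.p6. The 250 bases before the start are printed 5′ to 3′ on the gene's strand, with the matches, which read as the reverse complement, in capitals. The Lef1 window is that of an alternative start, at chr3:131156044-131156293 on the plus strand, and the Prkcd window is at chr14:30626209-30626458 on the minus strand.
Lef1: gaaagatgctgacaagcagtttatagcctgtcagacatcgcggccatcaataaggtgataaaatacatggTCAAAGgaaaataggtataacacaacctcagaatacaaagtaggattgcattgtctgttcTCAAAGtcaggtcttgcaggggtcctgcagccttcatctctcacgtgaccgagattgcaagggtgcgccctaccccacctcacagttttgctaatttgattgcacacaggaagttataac
Prkcd: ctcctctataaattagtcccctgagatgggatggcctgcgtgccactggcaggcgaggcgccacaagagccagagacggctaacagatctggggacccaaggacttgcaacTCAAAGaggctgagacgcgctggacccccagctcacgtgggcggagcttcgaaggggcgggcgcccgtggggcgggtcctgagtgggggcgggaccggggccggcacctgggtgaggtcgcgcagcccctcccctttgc
The Lef1 window holds 2 matches, the first 180 and the last 120 bases before the start, and the Prkcd window holds 1, 139 bases before it. Of 14 promoter windows of 9 members, 2 held the letters, against 16.003% of all 32851 windows. AGGTCA, the letters of ROR factors such as Rora, was in 0 of the 14 (16.3% of all), and ATTAAT, letters of POU4 factors such as Pou4f1, was also in 0 (4.75% of all). These matches describe letters only and name no bound site.

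All 7 thalamic members were lower on average in cKO, and 5 of them fell past the threshold: Rora, Prkcd, Slitrk6, Ntng1 and Plekhg1. None of the 3 habenular members passed. The threshold was an adjusted p of 0.05 in limma over 15359 genes whose mean reached 1 CPM, which all 10 members did. Over all those genes 14.1% passed, 7.60% lower and 6.54% higher in cKO. The count of 5 of 10 members is above that share, but the members were chosen with earlier results of these data known. The thalamic members also varied together across libraries, so the 5 are not separate results and nothing is read from that comparison. The members' median log2 difference was -0.61 for the thalamic genes and -0.04 for the habenular genes, against 0.01 over all tested genes. Of all tested genes, 47.5% had a log2 difference below 0.

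**Figure D1:**
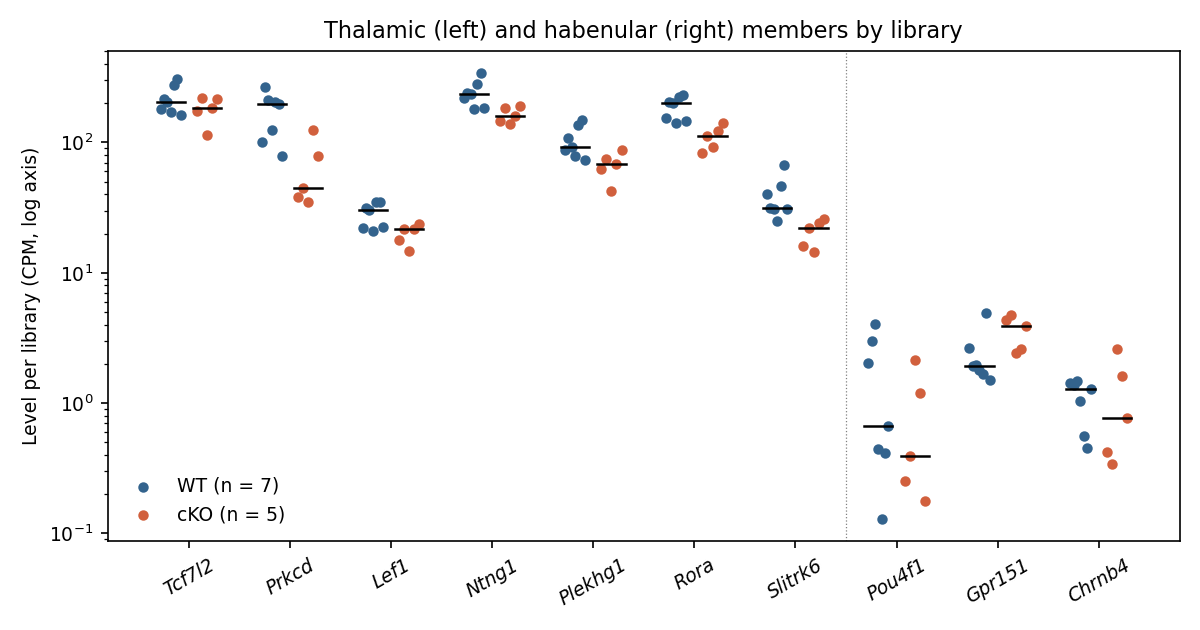
Level of each member in CPM on a log axis, one point per library, for 7 WT (blue) and 5 cKO (orange) libraries; the bar is the group median. The thalamic members lie between 14.5 and 341 CPM and the habenular members between 0.130 and 4.92 CPM, and the groups overlap for each member.

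Prkcd, a protein kinase C isoform abundant in relay neurons of the sensory thalamus, differed most. It ranged in WT from 79.1 to 266 CPM with a median of 197. In cKO it was at 38.4, 44.7, 35.2, 124 and 78.5 CPM in mice 8, 9, 12, 13 and 14. Below the lowest WT library lay 4 of the 5 cKO libraries, but cKO 13 reached into the WT range, so the groups overlap. Its log2 difference was -1.44 (SE 0.35), with an adjusted p of 0.0177 in limma and an exact permutation p of 0.00884, two-sided, in a design whose smallest possible p is 0.00126.

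Rora, a nuclear receptor of the ROR family, ranged in WT from 142 to 233 CPM with a median of 200.5. In cKO it was at 83.7, 112, 92.5, 123 and 142 CPM. Only cKO 14 reached the WT range, by less than 1 CPM above its lowest library. The log2 difference was -0.75 (SE 0.15, limma adjusted p = 0.00970, exact permutation p = 0.00505).

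Slitrk6, a membrane protein of the Slitrk family that acts in neurite growth and synapse formation, ranged in WT from 25.2 to 66.9 CPM with a median of 31.5. In cKO it was at 16.03, 22.2, 14.5, 24.1 and 25.9 CPM. Again 4 cKO libraries lay below all WT libraries and cKO 14 just inside the WT range. Its log2 difference was -0.85 (SE 0.21, limma adjusted p = 0.0210, exact permutation p = 0.00631).

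Ntng1, which encodes the membrane-anchored axon protein netrin-G1, ranged in WT from 180.3 to 341 CPM with a median of 234. In cKO it was at 147, 184, 138, 160 and 192 CPM. In cKO 3 libraries were below the WT range, and cKO 9 and cKO 14 were inside it. The log2 difference was -0.53 (SE 0.14, limma adjusted p = 0.0287, exact permutation p = 0.0139). The call was lost with all genes above 0 (limma adjusted p = 0.0582) and without WT 7, cKO 8, cKO 12 or cKO 13, with limma adjusted p from 0.0217 to 0.0618 over the 12 fits that left out a mouse.

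Plekhg1, a protein with a pleckstrin homology domain, ranged in WT from 73.6 to 148 CPM with a median of 92.9. In cKO it was at 62.7, 74.2, 42.5, 68.7 and 87.1 CPM. In cKO 3 libraries were below the WT range and 2 inside it. It lay closest to the threshold of those that passed, at a log2 difference of -0.61 (SE 0.19, limma adjusted p = 0.0489, exact permutation p = 0.0202). The call was lost in 9 of the 12 fits that left out a mouse, all but those without WT 6, WT 15 or cKO 14, with limma adjusted p from 0.0349 to 0.102 over the 12. It was also lost with median centring, with eBayes without trend and with all genes above 0.

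Lef1, the Wnt effector, missed the threshold narrowly. It ranged in WT from 20.9 to 34.8 CPM with a median of 30.5, and was at 17.8, 21.6, 14.7, 21.5 and 23.8 CPM in cKO. Below the WT range lay 2 cKO libraries. The log2 difference was -0.47 (SE 0.15, limma adjusted p = 0.0504, exact permutation p = 0.0253), and the authors' deposited table gives Lef1 an FDR of 0.0339; there 4.94% of all listed genes are under 0.05. Lef1 passed in limma without WT 6 or without WT 15, with adjusted p from 0.0359 to 0.109 over the 12 fits that left out a mouse. With a minimum mean of 5 CPM it also passed in limma (limma adjusted p = 0.0476). It passed by edgeR (edgeR adjusted p = 0.0475) and by DESeq2 (DESeq2 adjusted p = 0.0128) as well. In the GENCODE M21 models 13.7% of its exon bases overlap Gm43352 on the other strand, and whether counting used strand is not given in the sources used here.

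Tcf7l2, the effector most used to mark the thalamus, differed least of the thalamic members. It ranged in WT from 161 to 307 CPM with a median of 205, and was at 174, 221, 114, 184 and 217 CPM in cKO. Only cKO 12 lay below the WT range. Its log2 difference was -0.25 (SE 0.18, limma adjusted p = 0.376, exact permutation p = 0.271), and shrank to -0.09 without cKO 12 and -0.16 without WT 11.

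**Figure D2:**
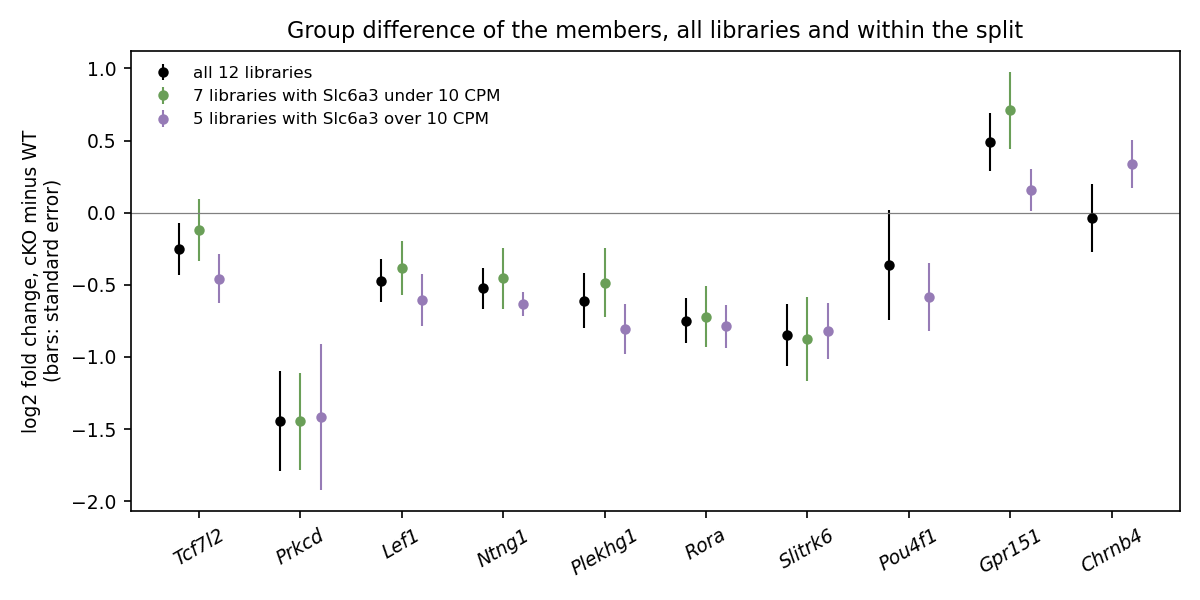
Log2 difference of each member (cKO minus WT) with its standard error, in all 12 libraries (black), in the 7 libraries with Slc6a3 under 10 CPM (green) and in the 5 over it (purple). The thalamic members lie below 0 in each set, with Prkcd between -1.45 and -1.41; Pou4f1 and Chrnb4 have no value in the 7 libraries, where they fall under the CPM minimum.

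The 5 libraries that stand apart hold 3 WT and 2 cKO mice, so each result was also taken within each set, a choice made after the values were seen. Within the 7 libraries with Slc6a3 under 10 CPM (4 WT, 3 cKO) limma called 0 of the 8 members tested, 4 at an unadjusted p under 0.05, and 3.16% of all genes. Within the 5 over it (3 WT, 2 cKO) it called 1 of 10, Ntng1, with 8 at an unadjusted p under 0.05, and 0.521% of all genes. In the 7 and the 5 libraries Rora differed by -0.72 and -0.79, Slitrk6 by -0.88 and -0.82, and Prkcd by -1.45 and -1.41. The other thalamic members differed less in the 7 than in the 5: Ntng1 by -0.45 and -0.63, Plekhg1 by -0.48 and -0.81, Lef1 by -0.38 and -0.60, and Tcf7l2 by -0.12 and -0.46. The difference between the sets was not tested. With all 12 libraries and a term for the set, limma called 6 members, Lef1 added (adjusted p = 0.0374), and 19.5% of all genes, also more than the 14.1% without the term.

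The level of the thalamic members varied across libraries also within a group. Summed over the 7 thalamic members it ran from 699 CPM in WT 15 to 1328 CPM in WT 11, and from 451 CPM in cKO 12 to 767 CPM in cKO 14. As a mean of log2(CPM + 1) over the 7, here the thalamic score, WT was at 6.74 ± 0.36 (SD, n = 7) and cKO at 6.04 ± 0.34 (SD, n = 5), a difference of -0.70 that has no p because the members were chosen with these data known. The score was highest in WT 11 and lowest in cKO 12. As many as 4 of the 5 cKO libraries lay below the lowest WT library, and cKO 14 lay above WT 6 and WT 15. The difference was -0.64 in the 7 libraries with low Slc6a3 and -0.79 in the other 5.

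**Figure D3:**
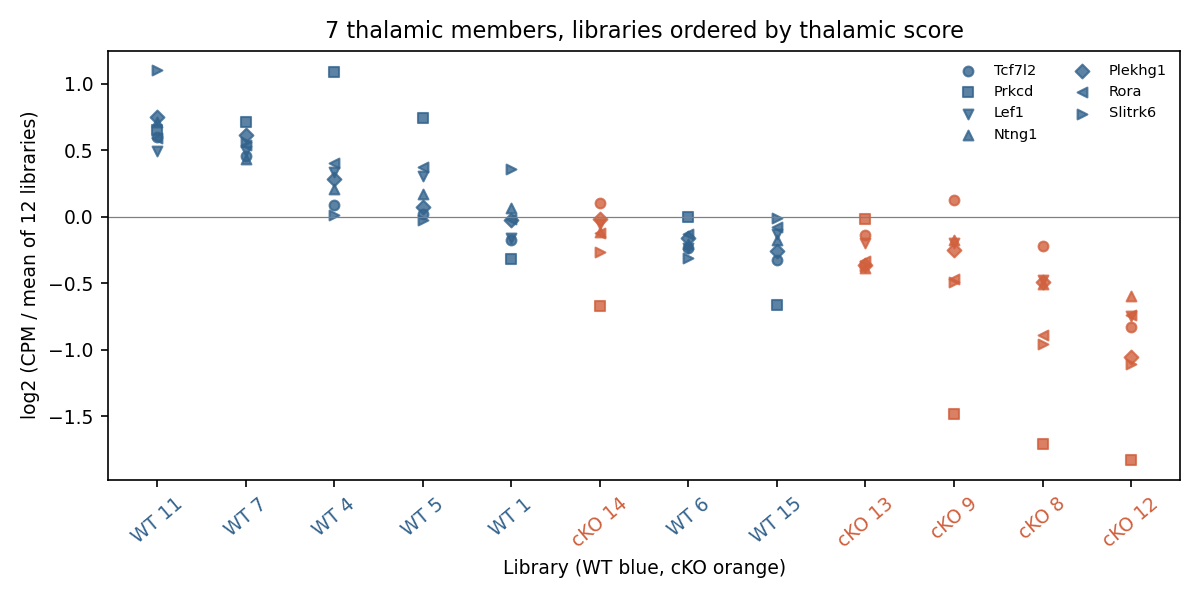
Log2 of each thalamic member's CPM over its mean in 12 libraries, with libraries ordered from the highest to the lowest thalamic score (WT blue, cKO orange; each symbol is a gene). WT 11 stands highest and cKO 12 lowest; 6 of the 7 members peak in WT 11 and 6 of 7 are lowest in cKO 12.

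The extremes lay in the same libraries. Of the 7 thalamic members, 6 were highest in WT 11, the library with Hcrt at 0.372 CPM, and 6 were lowest in cKO 12. Of the 20 other thalamic genes listed, 16 were highest in WT 11 and 13 lowest in cKO 12. The part of the Hcrt level in the thalamic values was not tested. Compared with all tested genes, the members varied widely among the WT mice: the SD of log2(CPM + 1) over WT was 0.30 for Rora, 0.35 for Tcf7l2 and 0.64 for Prkcd, at percentiles 93.4, 95.6 and 99.3 of all genes, whose median SD was 0.11. For Smc3 it was 0.06. Over cKO the SD of Prkcd was 0.76, at percentile 99.4, but that of Lef1 was 0.26 and that of Ntng1 0.21, at percentiles 88.3 and 79.4.

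The thalamic members varied together from mouse to mouse. Over the 21 pairs of thalamic members, Pearson's r of log2(CPM + 1) within WT ran from 0.257 to 0.995 with a median of 0.890, and within cKO from 0.419 to 0.971 with a median of 0.843. These describe 7 and 5 libraries, share each library's dissection and depth, and carry no p. Lef1 with Rora was the closest pair in WT. Prkcd was least like the rest: its 6 pairs had a median r of 0.708 in WT, against 0.908 over the 15 pairs without it.

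**Figure D4:**
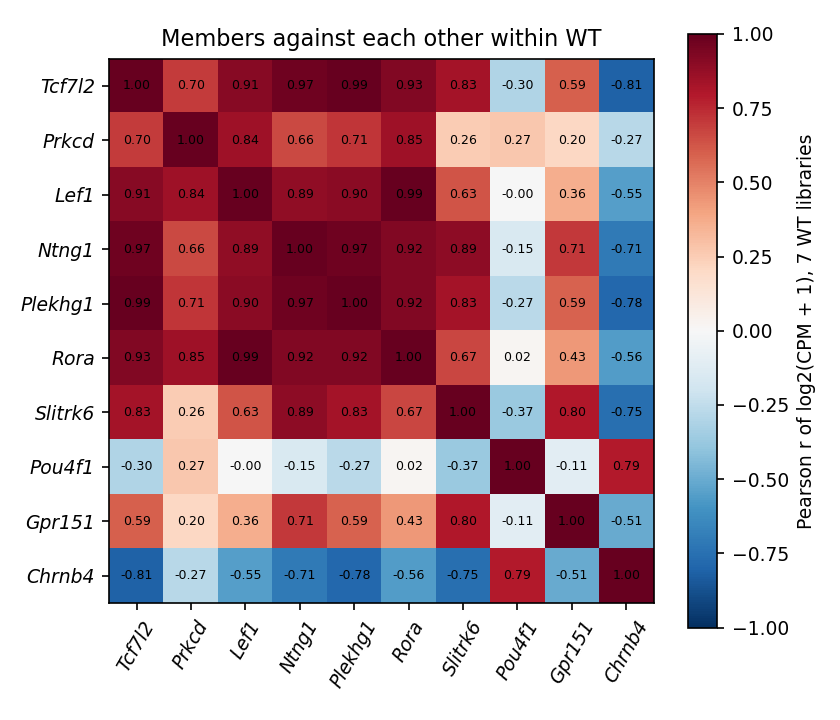
Pearson's r of log2(CPM + 1) between members over the 7 WT libraries, with the value in each cell. The thalamic members form a block of high values with Prkcd lowest in it, and Pou4f1 pairs with Chrnb4 (0.79) but not with Gpr151 (-0.11).

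The ratios of the thalamic members to Tcf7l2 did not all overlap between groups. Set over Tcf7l2 in the same library, Slitrk6 was at 0.146 to 0.222 in WT and 0.0921 to 0.131 in cKO, and Plekhg1 at 0.453 to 0.4995 in WT and 0.335 to 0.402 in cKO, so neither ratio overlaps between groups. For Prkcd, Rora, Ntng1 and Lef1 the ratios overlap. Tcf7l2 was picked as the base after the values were seen, and these ratios have no p. It differed least of the thalamic members, so the choice of base makes the ratios of the others lean lower in cKO. Of all 15359 genes, 0.117% had a ratio to Tcf7l2 that lay wholly lower in cKO and 0.0977% wholly higher. A gene that varies with Tcf7l2, as Plekhg1 does (r = 0.993 within WT), has a steadier ratio to it than an unrelated gene. Nothing is read from these shares for that reason. Without division by Tcf7l2, no member's ranges separated the groups, against 3.20% of all genes wholly lower and 3.52% wholly higher in cKO.

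Per kilobase of exon in the GENCODE M21 models, the WT mean level was highest for Prkcd (30.5 CPM per kb), Ntng1 (29.1) and Tcf7l2 (24.7), whose ranges overlap one another. Rora (14.3), Plekhg1 (11.8) and Slitrk6 (9.14) followed, with ranges that overlap one another and also that of Prkcd (14.3 to 48.1). Lef1 was at 3.20 CPM per kb and below all of these in every WT library. Gpr151 (1.32), Pou4f1 (0.328) and Chrnb4 (0.293) were the lowest. The authors' gene models are not given in the sources used here, so the lengths may differ from those they counted on.

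The habenular members were low and did not vary as a set: Gpr151 had 34 to 181 reads a library, while Pou4f1 went down to 3 reads and Chrnb4 to 7. Gpr151, an orphan receptor of habenular neurons, ranged in WT from 1.51 to 4.92 CPM with a median of 1.92, and was at 4.32, 4.75, 2.43, 2.61 and 3.91 CPM in cKO. All 5 cKO libraries lay above the WT mean, but WT 11 lay above them all. The log2 difference was 0.49 (SE 0.20, limma adjusted p = 0.118, exact permutation p = 0.0619). Without WT 11 it was 0.64 with a limma adjusted p of 0.0200, and it was 0.71 in the 7 libraries with low Slc6a3 and 0.16 in the other 5.

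Pou4f1 ranged in WT from 0.130 to 4.05 CPM with a median of 0.667, and was at 0.252, 0.392, 2.15, 1.19 and 0.178 CPM in cKO. Its lowest values rest on 3 reads. The groups overlap broadly, with a log2 difference of -0.36 (SE 0.38, limma adjusted p = 0.558, exact permutation p = 0.427). That size depended on the scale and on single libraries: it was -0.63 with a pseudocount of 0.1, -0.87 by edgeR, -0.89 by DESeq2, -0.22 without WT 4, -0.23 without cKO 14 and -0.58 without cKO 12. Chrnb4, a subunit of the nicotinic receptor of the medial habenula, ranged in WT from 0.454 to 1.49 CPM with a median of 1.29, and was at 0.420, 0.343, 2.61, 1.61 and 0.769 CPM in cKO. The cKO libraries span more than the whole WT range, with a log2 difference of -0.04 (SE 0.24, limma adjusted p = 0.938, exact permutation p = 0.900) whose sign flipped under other settings, edgeR and quantile scaling among them. Of these 3 members limma called 0 (1 at an unadjusted p under 0.05), and edgeR and DESeq2 on recovered reads also called 0; over all genes edgeR called 13.7% and DESeq2 17.9%. Both called 6 of the 7 thalamic members.

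Pou4f1 and Chrnb4 were higher in the libraries that stand apart, across both labels. In the 5 libraries with high Slc6a3, Pou4f1 was at 1.19 to 4.05 CPM and Chrnb4 at 1.38 to 2.61 CPM, and in the other 7 at 0.130 to 0.667 and 0.343 to 1.29 CPM. Of all 15359 tested genes, 2.64% were wholly higher in the 5 libraries and 0.573% wholly lower, but Pou4f1 and Chrnb4 reached the minimum mean of 1 CPM only through these 5 libraries, so nothing is read from that share. Gpr151 overlapped: it was at 1.92 to 2.63 CPM in the 5 and 1.51 to 4.92 CPM in the 7. Of the 15 other habenular genes, 3 were wholly higher in the 5 libraries and 12 overlapped between the sets. Of the 12 that reached the CPM minimum, 2 were wholly higher, Chrnb3 and Nr4a2. Chrnb3 too reached that minimum only through the 5 libraries, so nothing is read from this count. The nicotinic subunit gene Chrna5 was at 1.04 to 2.65 against 0.313 to 0.651 CPM, and Chrnb3 and Nr4a2 also separated. Among those that overlapped were Gng8, at 1.59 to 3.58 and 1.51 to 2.15 CPM, and Chat. Midbrain genes separated, among them Th (62.0 to 98.3 against 18.1 to 48.6 CPM) and En1 (4.51 to 9.09 against 0 to 0.248 CPM). The nicotinic subunit gene Chrna6 did so too, and midbrain dopamine neurons also express Nr4a2 and Chrnb3. The sets were defined by Slc6a3, itself a midbrain gene, and the midbrain genes were chosen after the values were seen. En1 also reached the CPM minimum only through the 5 libraries, so nothing is read from the separation of midbrain genes. Between the labels limma called 0 of 9 midbrain dopamine neuron genes (0 at an unadjusted p under 0.05, and 0 by edgeR and DESeq2); with 14.1% of all genes called by limma, a count of 0 in so short a list says little. Other marker lists separated too, as means of log2(CPM + 1). The tested genes of the other habenular list were at 4.05 to 4.21 in the 5 libraries and 3.35 to 3.94 in the 7. The nicotinic receptor genes were at 4.13 to 4.43 in the 5 and 3.11 to 3.74 in the 7. Both lists hold Chrnb3, which reached the CPM minimum only through the 5 libraries, so nothing is read from these 2 means. The oligodendrocyte genes were at 8.41 to 8.87 in the 5 libraries and 7.71 to 8.22 in the 7. The prethalamic genes were lower in the 5, at 2.88 to 3.59 against 3.65 to 4.30. The 2 sets of libraries were defined from the data and no p is given. The part of midbrain or other tissue in Pou4f1 and Chrnb4 was not tested.

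**Figure D5:**
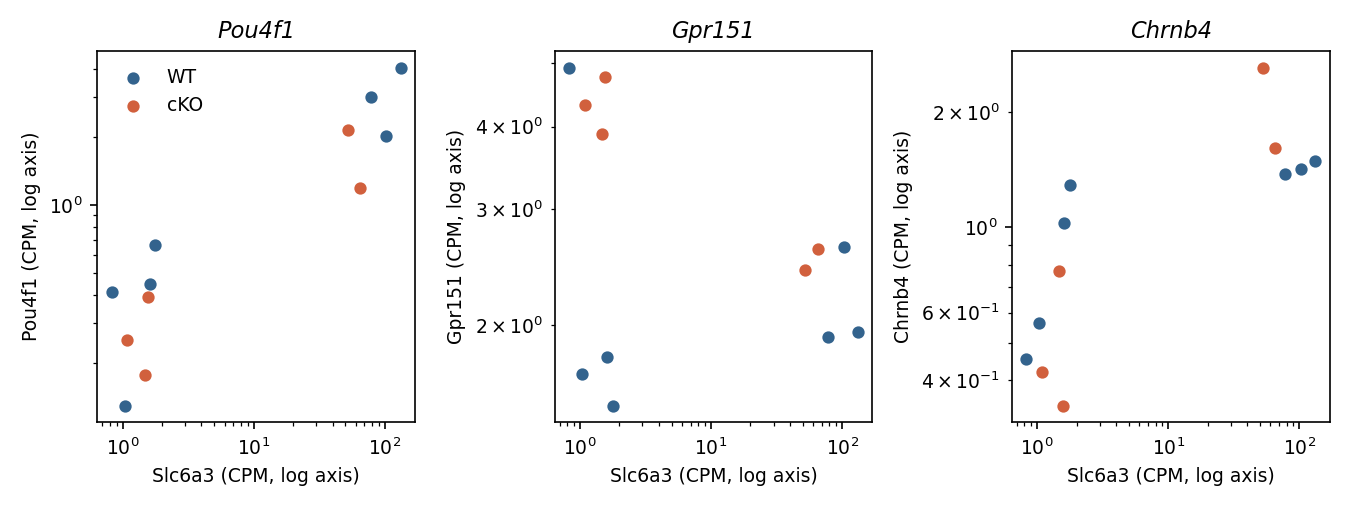
CPM of the 3 habenular members (vertical, log axis) against CPM of Slc6a3 (horizontal, log axis), one point per library (WT blue, cKO orange). The 5 libraries with Slc6a3 from 52.6 to 132 CPM hold the highest Pou4f1 and Chrnb4 values and middling Gpr151 values.

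The thalamic score showed no detectable relation to a score of the 3 habenular members. Among these 3, Pou4f1 with Chrnb4 had r = 0.750 and rho = 0.797 over 12 libraries, while Gpr151 with Chrnb4 had r = -0.585 and rho = -0.413, and r = -0.325 without WT 11 and cKO 9. The correlation of the thalamic score with the mean log2(CPM + 1) of the 3 habenular members was r = -0.175 (permutation p = 0.581) and rho = -0.042 (permutation p = 0.905) over 12 libraries, the only relation of scores computed. Within the 7 WT libraries r was -0.054 (exact permutation p = 0.912). Without WT 11 and cKO 12, the libraries farthest from the median thalamic score, r was 0.165 (permutation p = 0.646). Single genes differed, and are given as a description with no p. Of the 7 pairs of a thalamic member with Chrnb4, 6 had r below 0, lowest for Tcf7l2 at r = -0.705 and rho = -0.524 over 12 libraries. That pair had r = -0.809 within WT, -0.791 within cKO and -0.387 without WT 11 and cKO 12, so it rests in part on those libraries. When the 2 libraries farthest from the median of each thalamic member were left out, the 7 Chrnb4 pairs ran from -0.387 to 0.371, with 4 below 0. With Pou4f1 the 7 pairs ran from r = -0.341 to 0.283 over 12 libraries, from -0.371 to 0.271 within WT and from -0.831 to -0.053 within cKO. They ran from -0.122 to 0.478 with the same libraries left out, with 1 below 0 against 4 over 12 libraries. With Gpr151 they ran from -0.410 to 0.296 over 12 libraries, but from 0.203 to 0.800 within WT and from -0.276 to 0.723 within cKO, and from -0.663 to 0.032 with the same libraries left out. The habenular score was 1.28 ± 0.36 (SD, n = 7) in WT and 1.31 ± 0.29 (SD, n = 5) in cKO.

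The genes most like the thalamic score, by the mean of r within WT and r within cKO over all tested genes, were Rasgrp1 (0.977), Ddah1 (0.975), Vav3 (0.974), Scrt2 (0.972) and Clmn (0.968). None of these 5 passed the threshold between the labels: the log2 difference was -0.48 for Rasgrp1 (limma adjusted p = 0.0571) and 0.04 for Ddah1 (0.721). For the habenular score they were Frmd5 (0.960), Ucn (0.959), Pld1 (0.952), Gphn (0.947) and Gm40578 (0.945), and none passed either. Each is an extreme picked from all tested genes over few libraries. The lowest values lay about as far from 0: Hdac11 at -0.979 for the thalamic score and Meis2 at -0.955 for the habenular score. Ucn, urocortin, was at 0.760 to 4.24 CPM in the 5 libraries with high Slc6a3 and 0 to 0.178 CPM in the other 7. Like Pou4f1 and Chrnb4, it reached the CPM minimum only through those 5 libraries, so nothing is read from its likeness.

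A second list held 20 thalamic genes. All 20 log2 differences were below 0, against 47.5% of all tested genes, and their median was -0.32. The list was chosen with earlier results of these data known, and 16 of the 20 genes were highest in WT 11. The 20 differences are thus not separate results, and nothing is read from their shared sign. Past the threshold 3 of 20 fell, of which 2 are described; over all tested genes 7.60% fell, and so small a count gives no result about the list. Cacna1g, the T-type calcium channel of thalamic burst firing, was at 261 ± 44.7 CPM in WT and 178 ± 16.1 CPM in cKO, with groups that do not overlap and a log2 difference of -0.53 (SE 0.10, limma adjusted p = 0.00798). Rgs16, a regulator of G protein signalling, was at 82.6 ± 20.2 and 45.0 ± 14.3 CPM, also without overlap (-0.89, SE 0.20, limma adjusted p = 0.0143).

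Of 12 other habenular genes tested, 2 fell: the tachykinin gene Tac1, at 27.7 ± 4.89 CPM in WT and 17.7 ± 4.00 CPM in cKO (limma adjusted p = 0.0146), and Kctd12, a subunit of GABA-B receptors (log2 difference -0.21, limma adjusted p = 0.0197). Hypothalamic neurons express Tac1 as well. The list's median log2 difference was -0.06, and 7.60% of all tested genes fell; 2 of 12 is too small a count to give a result about the list.

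Genes that act with the members are given beside the 7.60% of all tested genes that fell and the 6.54% that rose. Of 20 genes tested of the Wnt and TCF/LEF pathway, 3 fell and 1 rose. The receptor gene Fzd1 went from 35.5 ± 3.19 to 25.4 ± 4.51 CPM (log2 difference -0.48, limma adjusted p = 0.00811), and the feedback inhibitor genes Nkd1 (-0.52, limma adjusted p = 0.0168) and Notum (-0.32, limma adjusted p = 0.0499) were lower too, while the R-spondin gene Rspo3 was higher (0.25, limma adjusted p = 0.0385). Of 20 relatives and partners of the members, 0 fell and 3 rose: Lrrc4 (0.22, limma adjusted p = 0.0119), Slitrk5 (0.27, limma adjusted p = 0.0130) and Lrrc4c, whose protein is the ligand of netrin-G1 (0.19, limma adjusted p = 0.0395). Of 7 nicotinic receptor genes limma called 0 (2 at an unadjusted p under 0.05), edgeR 0 and DESeq2 1.

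Markers of other tissues and cells were taken beside these. Of all tested genes 14.1% passed in limma, 6.54% rose and 47.5% had a log2 difference below 0. In lists this short, counts of 0 or 1 called genes cannot be told from the shares that passed or rose. Of 21 hypothalamic genes tested 1 rose, Sim1, from 14.9 ± 2.48 to 22.7 ± 4.89 CPM (limma adjusted p = 0.0206). A log2 difference below 0 was found in 5 of the 21, with a median of 0.40. Over all 25 hypothalamic genes listed, the sum ran from 159 to 848 CPM in WT and 301 to 900.3 CPM in cKO. Among the 25, Nr5a1 and Rax were at 0 in at least 1 library. Of 10 prethalamic genes, 1 had a log2 difference below 0, with a median of 0.36, and limma called 0 (2 at an unadjusted p under 0.05; edgeR 0, DESeq2 1). Of 8 pan-neuronal genes 1 rose, Stmn2, by 0.20, with 3 at an unadjusted p under 0.05 and 2 with a log2 difference below 0. Their mean of log2(CPM + 1) differed by 0.13, with 0 of 5 cKO libraries below the WT mean. Limma and edgeR called 0 among the mammillary, cortical and striatal, choroid plexus, pituitary, astrocyte, oligodendrocyte and microglia genes, with 0, 0, 1, 1, 1, 0 and 2 of them at an unadjusted p under 0.05 and DESeq2 calling 1 choroid plexus gene. As a mean of log2(CPM + 1), the choroid plexus genes differed by -0.21, with 4 of 5 cKO libraries below the lowest WT library, and the microglia genes by 0.11, with 0 of 7 log2 differences below 0. The astrocyte genes differed by 0.14, the oligodendrocyte genes by 0.06, the mammillary genes by 0.03, the cortical and striatal genes by -0.05 and the pituitary genes by 0.33. Of the 3 pituitary genes tested, 2 had a log2 difference below 0, with a median of -0.05, so their 0.33 came from 1 gene. The part of all these lists in the thalamic differences was not tested.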

How the data were processed

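Reads were made into a table of CPM by the authors; the submitters' processing notes name STAR 2.7.9a, featureCounts and FastQC 0.11.9, and the genome build and annotation are not given in the sources used here. In the deposited CPM 100% of values were whole multiples of 1 read (tolerance 0.01 reads), so counts could be recovered, and the deposited scaling equals edgeR's TMM factors. The authors' deposited table holds log2 fold changes and p-values. Genes whose mean reached 1 CPM were tested with limma 3.58.1 (eBayes with trend, R 4.3.3) on log2(CPM + 1), Benjamini-Hochberg adjusted over all 15359; single members also had an exact permutation test. On simulated data limma recovered 184 of 193 genes changed by 1 on the log2 scale, with 6 false calls among 15349 genes. Alternatives were edgeR 4.0.16 and DESeq2 1.42.0 on recovered reads, other pseudocounts, filters and scalings, and leaving out each mouse. Named were the members, the 5 genes most like each score, and up to 4 called genes per list; 1 called thalamic gene is not reported here. The members and lists were chosen with earlier results of these data known; the midbrain genes and the Slc6a3 sets were chosen after seeing the data. Nothing says that litters or dissections were separate, so p-values measure the spread between these samples.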

Additional observations from a re-analysis of the deposited data

Results flagged for a closer look

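Gpr151 in WT 11, at 4.92 CPM, lay far from the other 6 WT libraries, of which the nearest was at 2.63 CPM; that gap was 0.671 of the whole WT range. It is 1 of 24 groups of values examined, where about 1.2 would stand out by chance at 1 in 20.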

How the results depend on the processing

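Of the 10 members, 5 passed the threshold in the full set. With a minimum mean of 5 CPM 6 passed, Lef1 added, of the 7 members then tested. The count was 3 with all genes above 0 (more genes to adjust over), 0 in the 7 libraries with Slc6a3 under 10 CPM (4 at an unadjusted p under 0.05) and 1 in the 5 over it, where fewer samples were fitted; leaving out each mouse gave 3 to 6, with 3 without WT 7, cKO 8, cKO 12 or cKO 13. Rora, Prkcd and Slitrk6 passed in each of those 12 fits. Of all genes 2172 passed, and 1158 (without WT 1) to 2302 when a mouse was left out, 484 in the 7 libraries and 80 in the 5. Median centring gave 1377 higher and 1054 lower genes, against 1004 and 1168. The log2 difference of Chrnb4 turned positive with quantile normalization (0.046), edgeR (0.057), DESeq2 (0.066) and the 5 libraries (0.34). It did so too in 5 of the 11 leave-outs with a value, which ran from -0.13 to 0.11. Without cKO 12 Chrnb4 fell under the CPM minimum, as did Pou4f1 without WT 5. The cause of the sign changes was not tested. The correlation of the thalamic and habenular scores turned to 0.165 without WT 11 and cKO 12. The thalamic score difference stayed between -0.79 and -0.58. No paired analysis was possible because the WT and cKO mice share no replicate number. At 3 reads, Pou4f1 is not measurable below about 0.178 CPM in the shallowest library; floors cover counting error only.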
